A study of Mus musculus with 12 samples.

Results

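The 4 genes described here are tied to the make-up of the rTg4510 mouse, and the part of its disease was not tested. They were chosen by symbol from the deposited table of raw counts, in which they are 4 of 24411 entries. Prnp lends non-coding sequence to the vector that carries the tau transgene. Mapt is the mouse's own tau gene, the counterpart of the human coding sequence in the transgene. Camk2a lends its promoter to the activator that switches the transgene on, and Fgf14 is the gene into which the tau transgene inserted. Polyadenylated RNA of mouse hippocampus was sequenced in 12 libraries, 4 from littermate controls, 4 from rTg4510 mice and 4 from rTg4510 mice that received 3TC (lamivudine), which blocks reverse transcriptase. Per the labels, each group held 2 females and 2 males. The sources used here give neither strain nor age, and neither the littermates' genotype nor the dose or duration of 3TC. They do not say whether 1 animal gave 1 library, so a p-value speaks only of spread among these libraries, which may be technical.

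As background, rTg4510 is a bigenic line. A tetracycline-regulated activator is made under the Camk2a promoter, which is active mainly in excitatory neurons of the forebrain, and this activator drives a human tau cDNA with a frontotemporal dementia mutation from a tetracycline-responsive promoter. Both groups of transgenic libraries therefore share the activator, the tau transgene and the host sites of both insertions, and the littermate comparison cannot tell these apart. The tau transgene sits between non-coding exon sequence of mouse Prnp, so that reads from its untranslated ends can be counted for Prnp. The human coding sequence itself was not analysed here, and whether its reads were counted for mouse Mapt was not tested.

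The libraries held 27286787 to 58173678 counts. Values below are CPM, counts relative to library totals that were adjusted by TMM, and a change was called where its adjusted p was under 0.05 over all genes tested (edgeR quasi-likelihood test, Benjamini-Hochberg). All 4 genes passed the filter on low counts. Sex-linked counts went against the labels in 2 libraries, littermates F3 and M3, so sex was not a term of the fit. The labelled tissue was checked by summed markers of hippocampal neurons. The sums were 366.6 to 690.5 CPM for CA1 (5 of 5 markers tested) and 140.4 to 334.9 CPM for CA3 (5 of 5). For dentate granule neurons they were 110.1 to 358.0 CPM (6 of 6). Single markers were uneven within these sums. In rTg4510 F3 and littermate M2, Fibcd1 (CA1) stood at 12.4 and 11.3 CPM, against 77.7 to 152.3 CPM elsewhere. Spink8 (CA1) and Iyd (CA3) were also lowest there, but Mpped1 (CA1) was not low, at 257.8 and 246.7 CPM. In rTg4510 F3 the dentate marker C1ql2 stood at 1.17 CPM, against 16.5 to 77.5 CPM elsewhere. The sums thus do not show hippocampus to an equal extent in every library. Between all transgenic libraries and littermates, 20 of 77 marker genes had an unadjusted p under 0.05 (edgeR), against 8% of all genes. Of these markers edgeR called 0 and DESeq2 2. Median log2 fold changes of the marker lists ran from -1.47 (choroid plexus) to 0.30 (microglia). They were -0.77 for dentate granule neurons and -0.475 for oligodendrocytes. The part of such shifts in the 4 genes was not tested. Markers of other tissue and cell types also differed between libraries. Summed markers of thalamic neurons (6 of 6 tested) stood at 803.1 CPM in rTg4510+3TC F2, against 122.7 to 297.1 CPM in the other 11 libraries. Those of striatal neurons (7 of 7) stood at 421.4 CPM in rTg4510 F3, against 162.5 to 253.1 CPM in the others. Those of oligodendrocytes (6 of 6), the myelin-forming cells, stood at 9703 CPM in littermate M2, against 2472 to 6642 CPM in the others. Those of the choroid plexus (6 of 6) stood at 3146 to 6632 CPM in rTg4510 M1 and littermates F1 and F3, against 242.3 to 430.3 CPM elsewhere.

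Prnp encodes the prion protein, a membrane protein held on the surface of neurons by a lipid anchor and best known as the substrate of prion disease. The gene lies at chr2:131909928-131938429 (mm10, GENCODE M21, plus strand). Its coding transcript has 3 exons and 2184 bases, of which the 762 coding bases lie within exon 3 and 1422 bases are non-coding. A second annotated gene, Prn, which joins Prnp to its neighbour Prnd, overlaps these exons on the same strand and held 1 count over the 12 libraries.

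The littermate libraries stood at 774.4 CPM (F1), 741.9 CPM (F3), 684.6 CPM (M2) and 785.3 CPM (M3) of Prnp. The rTg4510 libraries stood at 2656 CPM (F2), 2249 CPM (F3), 2513 CPM (M1) and 2260 CPM (M3). With 3TC the libraries stood at 1537 CPM (F2), 2666 CPM (F3), 3016 CPM (M2) and 2419 CPM (M3). The lowest transgenic library was thus nearly 2 times the highest littermate one, and the widest spread was among the treated libraries. In the order of all genes by count, Prnp ranked 125 to 144 in littermates and 7 to 35 in transgenic libraries.

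The mean of Prnp was 2420 ± 199.6 CPM (SD, n = 4) in rTg4510 mice and 746.6 ± 45.2 CPM (n = 4) in their littermates, a ratio of 3.24. The log2 fold change was 1.70 ± 0.16 (SE), with a 95% interval of 1.35 to 2.05, and Prnp had the smallest p of the 16618 genes tested (adjusted p = 0.00169, edgeR). It was 1 of 5 genes called in this comparison, or 0.0301% of those tested, and the libraries of both groups were fully separate for 3.89% of genes. In rTg4510+3TC against littermates the log2 fold change was 1.69 ± 0.16 (adjusted p = 0.000881, edgeR), beside 0.0481% of genes called. Over all 8 transgenic libraries it was 1.69 ± 0.15 (adjusted p = 0.000322, edgeR), again beside 0.0481% called. These comparisons share the littermate libraries. The exact two-sided permutation test over libraries gave p = 0.00202 for 8 against 4, the smallest it can give. Without the libraries high in Ttr, the main choroid plexus transcript (rTg4510 M1, littermates F1 and F3), the log2 fold change over transgenic libraries was 1.71 and did not pass (adjusted p = 0.246, edgeR).

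**Figure D1:**
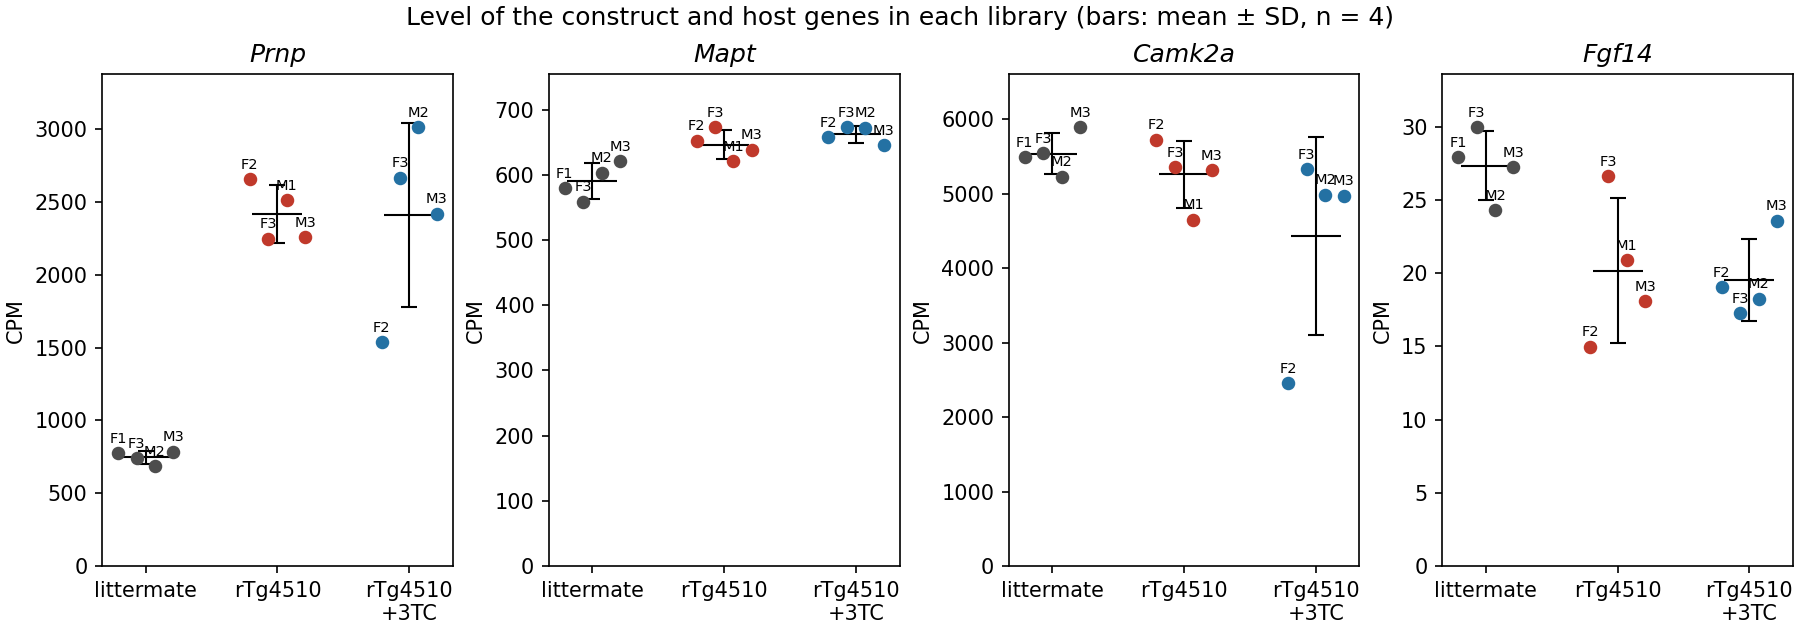
Level of Prnp, Mapt, Camk2a and Fgf14 in CPM (vertical axes, linear, from 0) in each of the 12 libraries by group, with bars for the mean and SD (n = 4). Prnp separates the transgenic libraries, at 1537 to 3016 CPM, from littermates, at 684.6 to 785.3 CPM, and Camk2a is lowest in rTg4510+3TC F2, at 2457 CPM.

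The 250 bases before the RefSeq start of Prnp (GRCm38.p6, the assembly of mm10) are shown because this is where transcription of the mouse's own gene begins, while the transgene, as background, is transcribed from the tetracycline-responsive promoter. Capitals mark GGGCGG on either strand (CCGCCC where it lies on the other strand), the core of the GC box read by Sp1 family factors, and the motif has no overlap with another one searched. The window held 2 matches. Of 32851 such windows 32.7% held at least 1, and the share with 2 or more was not counted. The Prnp window had 17 CpG pairs, against a median of 6. A window of Fgf14 also held 2 matches, with 7 CpG pairs. No sequence is shown for Mapt, Camk2a and Fgf14.
Prnp, chr2:131909678-131909927, plus strand: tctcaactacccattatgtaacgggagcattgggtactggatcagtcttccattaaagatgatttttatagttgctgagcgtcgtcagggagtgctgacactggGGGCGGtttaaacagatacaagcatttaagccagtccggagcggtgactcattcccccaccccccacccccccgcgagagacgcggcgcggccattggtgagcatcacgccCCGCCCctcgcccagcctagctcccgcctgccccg

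Prnp was then set beside the genes around it. Of the 5 tested genes on each side, 0 of 10 were called between all transgenic libraries and littermates by edgeR, 3 had an unadjusted p under 0.05, and DESeq2 and limma-voom called 0. Over all 16618 genes 1329, or 8%, had an unadjusted p under 0.05 in this comparison. The log2 fold changes of the 10 neighbours ran from -0.52 to 1.21, with a median of 0.06, against -0.01 over all genes. The nearest tested neighbours were Erv3, an endogenous retroviral gene, at 0.496 CPM in transgenic libraries and 0.202 CPM in littermates (1.21 ± 0.52 SE), and Rassf2, a Ras association domain gene, at 80.6 and 85.1 CPM (-0.08 ± 0.10). Adra1d, an adrenergic receptor gene, stood at 56.9 and 81.7 CPM (-0.52 ± 0.21, adjusted p = 0.581, edgeR). Rnf24 stood at 40.6 and 34.9 CPM (0.21 ± 0.07, adjusted p = 0.51, edgeR) and had the smallest p of the 10. Erv3, Adra1d and Rnf24 were the neighbours with an unadjusted p under 0.05. Prnd, which encodes the prion-like protein Doppel and follows Prnp, had at most 8 counts in any library and was not tested.

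Mapt (chr11:104231390-104332090, plus strand, mm10) encodes tau, which binds axonal microtubules and forms the aggregates that define tauopathies. Its levels were the steadiest of the 4 genes. In littermates it stood at 579.9 CPM (F1), 558.7 CPM (F3), 603.7 CPM (M2) and 620.8 CPM (M3). In rTg4510 it stood at 652.3 CPM (F2), 673.7 CPM (F3), 620.9 CPM (M1) and 638.8 CPM (M3). With 3TC it stood at 658 CPM (F2), 673.3 CPM (F3), 672.2 CPM (M2) and 645.8 CPM (M3). All 8 transgenic libraries lay above the 4 littermates, but by as little as 620.9 against 620.8 CPM, and with plain totals by 630.1 against 615.1 CPM. Of all genes tested, 1.31% had transgenic and littermate libraries that did not overlap.

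The mean of Mapt was 654 ± 18.9 CPM over the transgenic libraries (SD, n = 8) and 591 ± 27.2 CPM in littermates (n = 4), a ratio of 1.11. The log2 fold change of 0.15 ± 0.06 (SE; 95% interval 0.03 to 0.27) did not pass over all genes (adjusted p = 0.562, edgeR). The exact two-sided permutation test of Mapt alone gave p = 0.00202, the smallest that 8 against 4 libraries allow. Taken by group, the log2 fold change was 0.13 ± 0.06 in rTg4510 (adjusted p = 0.956) and 0.17 ± 0.06 in rTg4510+3TC (adjusted p = 0.502, edgeR). It was positive under each alternative run, from 0.11 to 0.17 over all transgenic libraries. Summed general neuron markers (6 of 6 tested) overlapped between groups, at 7082 to 7467 CPM in littermates and 6739 to 9097 CPM in transgenic libraries, and their part in the Mapt values was not tested.

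Around Mapt, 0 of 10 neighbours were called between all transgenic libraries and littermates by edgeR, DESeq2 or limma-voom, and 1 had an unadjusted p under 0.05. Crhr1, the receptor of corticotropin-releasing hormone, which precedes Mapt, stood at 12.3 CPM in transgenic libraries and 16.9 CPM in littermates (log2 fold change -0.48 ± 0.34 SE). Kansl1, a subunit of a histone acetyltransferase complex, which follows it, stood at 108 and 103 CPM (0.08 ± 0.06). The neighbour with the unadjusted p under 0.05 was Myl4, a myosin light chain gene, at 2.94 and 7.53 CPM (-1.55 ± 0.63, adjusted p = 0.58, edgeR).

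Camk2a (chr18:60925618-60988152, plus strand, mm10) encodes the alpha subunit of CaMKII, the calcium-dependent kinase of excitatory synapses that is needed for lasting potentiation. It was among the most abundant transcripts, ranking 1 to 4 by count in 11 libraries and 12 in rTg4510+3TC F2. Littermates stood at 5492 CPM (F1), 5545 CPM (F3), 5230 CPM (M2) and 5900 CPM (M3). The rTg4510 libraries stood at 5726 CPM (F2), 5359 CPM (F3), 4653 CPM (M1) and 5317 CPM (M3). With 3TC the values were 2457 CPM (F2), 5329 CPM (F3), 4988 CPM (M2) and 4974 CPM (M3). Apart from rTg4510+3TC F2, the groups lay close together and overlapped.

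Camk2a was not called in any group comparison. The log2 fold change was -0.07 ± 0.18 in rTg4510 against littermates (SE; adjusted p = 0.998) and -0.32 ± 0.18 in rTg4510+3TC (adjusted p = 0.653, edgeR). The mean with 3TC was 4437 ± 1330 CPM (SD, n = 4), and 5097 ± 201.2 CPM without F2 (n = 3). Beside the low Camk2a value of that library, summed markers of forebrain excitatory neurons (7 of 7 tested) stood at 1782 CPM, against 3015 to 3903 CPM in the other 11, and the thalamic markers were the highest of all. In bulk tissue fewer cells of a type and less RNA per cell cannot be told apart. Of 10 neighbours of Camk2a, among them the microRNA gene Mir7220 within its introns, 0 were called between all transgenic libraries and littermates by edgeR, DESeq2 or limma-voom, and 2 had an unadjusted p under 0.05. These were Cd74, the invariant chain of class II antigen presentation, at 4.28 and 2.47 CPM (log2 fold change 0.78 ± 0.32), and Csf1r, a receptor that sustains microglia, at 143.5 and 117 CPM (0.30 ± 0.12). Csf1r was also among the 6 microglia markers, whose median log2 fold change was 0.30.

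Fgf14 (chr14:123977907-124677127, minus strand, mm10) encodes an FGF homologous factor, an intracellular protein that binds voltage-gated sodium channels at the axon initial segment and is not secreted. Its 2 coding transcripts start far apart, so that the long form spans the whole gene and the short form begins at 124192902. In littermates Fgf14 stood at 27.9 CPM (F1), 30 CPM (F3), 24.3 CPM (M2) and 27.2 CPM (M3). In rTg4510 it stood at 14.99 CPM (F2), 26.6 CPM (F3), 20.9 CPM (M1) and 18.1 CPM (M3). With 3TC it stood at 19.0 CPM (F2), 17.3 CPM (F3), 18.3 CPM (M2) and 23.6 CPM (M3). Of the 8 transgenic libraries, 7 lay below every littermate, and rTg4510 F3, the library high in striatal markers, lay among them.

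Fgf14 averaged 19.9 ± 3.74 CPM over the transgenic libraries (SD, n = 8) and 27.4 ± 2.36 CPM in littermates (n = 4), a ratio of 0.725. The log2 fold change was -0.46 ± 0.14 (SE; 95% interval -0.76 to -0.17) and did not pass over all genes (adjusted p = 0.441, edgeR). The exact two-sided permutation test of Fgf14 alone gave p = 0.0101. By group the log2 fold change was -0.44 ± 0.16 in rTg4510 (adjusted p = 0.945) and -0.49 ± 0.16 in rTg4510+3TC (adjusted p = 0.428, edgeR). The treated libraries did not overlap the littermates, as for 5.86% of genes. Without the libraries high in thalamic, striatal or oligodendrocyte markers (in that order rTg4510+3TC F2, rTg4510 F3 and littermate M2), the log2 fold change over transgenic libraries was -0.59 (adjusted p = 0.0546, edgeR), and over the alternatives run it lay between -0.59 and -0.39. That choice left out the highest transgenic value (rTg4510 F3, 26.6 CPM) and the lowest littermate one (M2, 24.3 CPM), which by itself widens the gap. Over all genes edgeR then called 108, against 8 with all 12 libraries.

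The genes around Fgf14 were read the same way. Of the 6 tested ones, 5 before and 1 within the gene, 0 were called between all transgenic libraries and littermates by edgeR, DESeq2 or limma-voom, and 0 had an unadjusted p under 0.05. Itgbl1, an integrin-beta-like gene and the nearest, stood at 8.45 CPM in transgenic libraries and 8.38 CPM in littermates (log2 fold change 0.01 ± 0.32 SE). Nalcn, which encodes the sodium leak channel, stood at 125 and 111 CPM (0.17 ± 0.09). The antisense gene 1700024B18Rik, which lies within Fgf14 on the other strand, held 175 counts over the 12 libraries, and its exons do not overlap those of Fgf14. Exons of another annotated gene on the other strand, Gm28932, do overlap them. It was not analysed here, and without a stated strand setting its reads and those of Fgf14 cannot be told apart.

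**Figure D2:**
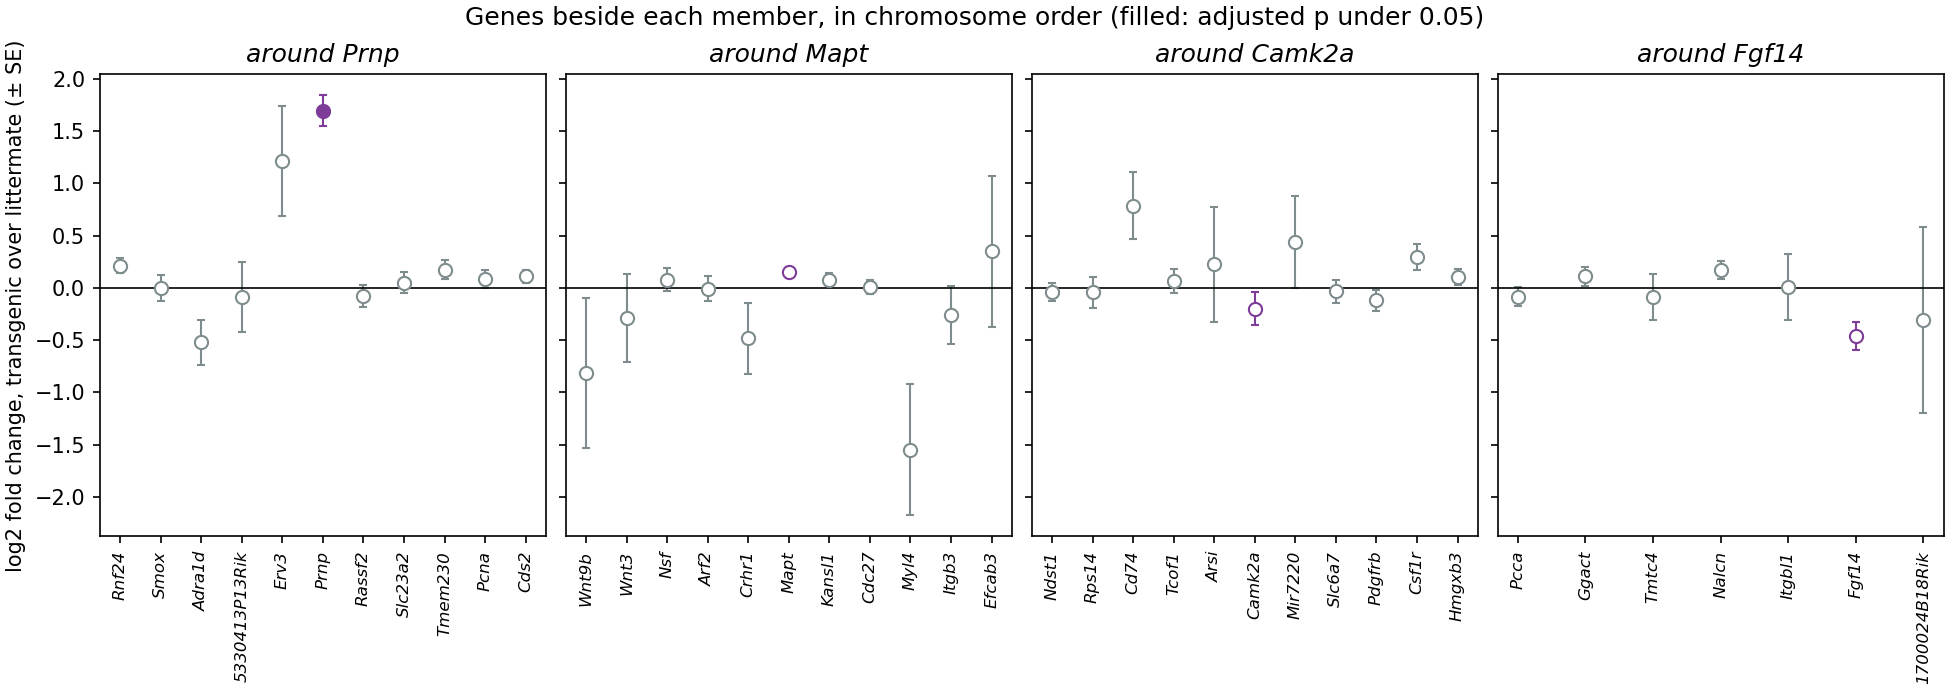
Log2 fold change, all transgenic libraries over littermates, with its SE (vertical axis), of each of the 4 genes (purple) and of the nearest tested genes before and after it in chromosome order (grey). Filled points passed the threshold. Prnp, at 1.69, is the filled point, and the nearest genes on either side are open.

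The effect of 3TC on the 4 genes was compared among transgenic libraries. Of the 4 genes, 0 were called by edgeR, DESeq2 or limma-voom between rTg4510+3TC and rTg4510, and 0 had an unadjusted p under 0.05. Over all genes edgeR called 0 (0% of those tested), DESeq2 1 and limma-voom 0, with 635 at an unadjusted p under 0.05. The groups overlapped for each of the 4 genes, and 2.46% of all genes had groups that did not. The 95% intervals below hold for each gene alone and do not give the smallest change that the adjusted test could call. For Prnp, at 2409 ± 631 CPM with 3TC (SD, n = 4), the log2 fold change was -0.01 ± 0.16 (SE) with a 95% interval of -0.35 to 0.33. For Mapt, at 662.3 ± 13.03 CPM, it was 0.04 ± 0.06 (-0.10 to 0.17). For Camk2a it was -0.25 ± 0.18 (-0.64 to 0.15), and for Fgf14, at 19.5 ± 2.80 CPM, -0.05 ± 0.16 (-0.39 to 0.30). Without rTg4510+3TC F2 the mean of Prnp with 3TC was 2700 ± 299.9 CPM (n = 3), and its log2 fold change turned to 0.16 (adjusted p = 0.9995, edgeR). That of Camk2a moved to -0.05 without the same library (adjusted p = 0.9995, edgeR).

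**Figure D3:**
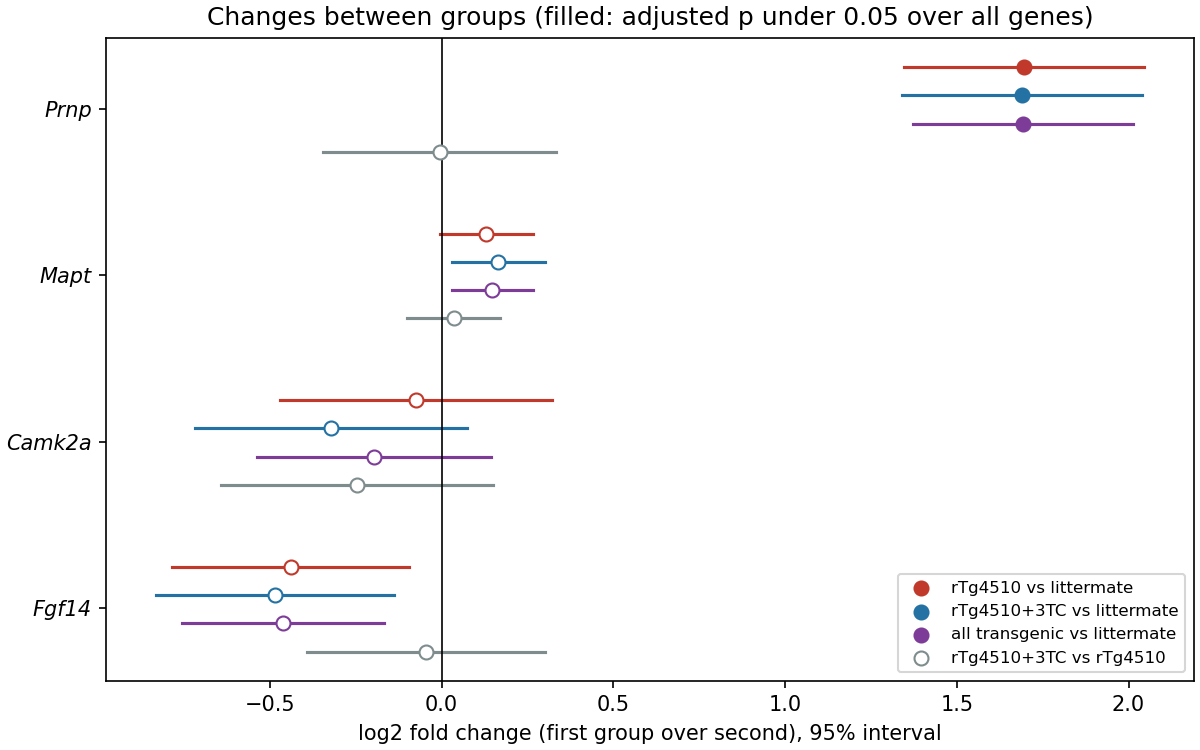
Log2 fold change (horizontal axis) of each gene with its 95% interval in 4 comparisons, each the first group over the second. Filled points passed the threshold, which only the 3 comparisons of Prnp with littermates did, at 1.69 to 1.70, while the intervals of the 3TC comparison (grey) include 0 for all 4 genes.

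Females and males were compared within the 8 transgenic libraries, in which sex-linked counts went with the labels. Prnp stood at 2277 ± 530 CPM in females and 2552 ± 326 CPM in males (SD, n = 4 of each sex), and the log2 fold change was -0.17 ± 0.18 (SE). For Mapt it was 0.04 ± 0.07, for Camk2a -0.10 ± 0.22 and for Fgf14 -0.06 ± 0.19. Of the 4 genes, 0 were called by edgeR, DESeq2 or limma-voom and 0 had an unadjusted p under 0.05, beside 5 of 16048 genes called by edgeR (0.0312%), all sex-linked. For the change with 3TC, the sexes could not be told apart at this spread for any of the 4 genes, with a female minus male difference of -0.41 ± 0.36 (SE) for Prnp and -0.51 ± 0.43 for Camk2a (adjusted p = 0.9996 for each, interaction contrast in edgeR).

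Levels of different genes can be compared only per length. Per kilobase of annotated exon, Camk2a was the highest in littermates, at 742.4 ± 36.9 CPM per kb (SD, n = 4), followed by Prnp at 318.6 ± 19.3, Mapt at 78.5 ± 3.61 and Fgf14 at 6.54 ± 0.56 CPM per kb. Neighbours in this order did not overlap in littermates. In rTg4510 the order of the first pair was exchanged by this measure, with Prnp at 1033 ± 85.2 and Camk2a at 705.1 ± 59.9 CPM per kb. Mapt then stood at 85.8 ± 2.95 and Fgf14 at 4.82 ± 1.18 CPM per kb. These values use the union of all annotated exons, 2343 bases for Prnp and 7465 for Camk2a, and a shorter transcript in use would raise them. The coding transcripts Camk2a-201 and Camk2a-203 have only 3244 and 4970 bases. The order of Prnp and Camk2a in rTg4510 therefore rests on the length used and may not hold for the transcripts present.

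Prnp was then set against Camk2a, whose promoter drives the activator. In littermates the count of Prnp was 13.1% to 14.1% of that of Camk2a, and in transgenic libraries 42% to 62.6%. Taking off the littermate mean left an excess of 790.3 CPM of Prnp in rTg4510+3TC F2 and of 1502 to 2269 CPM in the other 7 transgenic libraries. As a share of Camk2a this excess was 32.2% in rTg4510+3TC F2 and 28% to 45.5% in the other 7. Library rTg4510+3TC F2 was the lowest in Camk2a of the 12 and the lowest in Prnp of the transgenic ones. It had the highest Prnp count per Camk2a of the 12, at 62.6% against 42% to 60.5% in the other transgenic libraries. Its excess per Camk2a lay within their range. The excess assumes that the mouse's own Prnp stood at the littermate mean in each library, which was not tested. In rTg4510+3TC F2 the thalamic and forebrain excitatory markers lay outside the range of the other libraries.

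Across the 8 transgenic libraries the log2 levels of Prnp and Camk2a had a Pearson r of 0.84 (permutation p = 0.0741 over all pairings, adjusted p = 0.445 over 6 pairs of genes) and a Spearman rho of 0.29 (permutation p = 0.501, adjusted 0.751). Without the 2 libraries farthest from the median of Prnp, rTg4510+3TC F2 and M2, r was 0.12 (permutation p = 0.832). Without rTg4510+3TC F2 alone, a choice made after seeing the data, r was -0.11 (permutation p = 0.828). The relation rested on that library. The other 5 pairs had r between -0.21 and 0.08 (permutation p = 0.6 to 0.987, adjusted p = 0.987 for each). Without rTg4510+3TC F2 these moved to -0.56 for Prnp and Fgf14, 0.47 for Mapt and Camk2a, -0.43 for Camk2a and Fgf14, 0.32 for Prnp and Mapt and 0.01 for Mapt and Fgf14 (permutation p = 0.194 to 0.981).

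**Figure D4:**
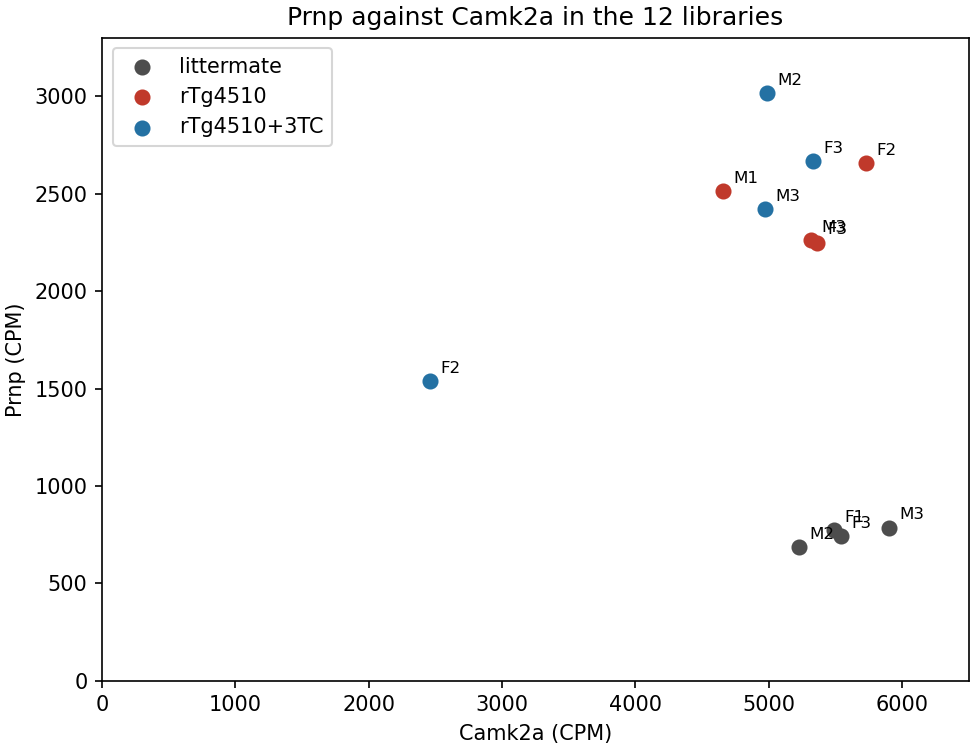
Prnp (vertical axis, CPM) against Camk2a (horizontal axis, CPM) in the 12 libraries, each point labelled by its replicate code. The littermates lie together at 684.6 to 785.3 CPM of Prnp, 7 transgenic libraries lie at 2249 CPM or more, and rTg4510+3TC F2 lies apart at 2457 CPM of Camk2a and 1537 CPM of Prnp.

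The genes most alike to each of the 4 were sought by the Pearson correlation of log2 levels, taken as deviations from the group means over the 12 libraries. These values describe the highest of many correlations and carry no test, and the libraries share depth and tissue make-up. Closest to Prnp were Hspa1b, an inducible heat shock protein (r = 0.97), Gna11, a G protein alpha subunit (0.96), Crtc1, a CREB coactivator (0.95), Mical2 (0.94) and Rin1 (0.93). Without rTg4510+3TC F2 these were 0.92, 0.87, 0.84, 0.82 and 0.89. Closest to Camk2a were Chn1 (0.98), Slc17a7, the vesicular glutamate transporter of forebrain excitatory neurons (0.98), Rasl10a (0.98), Agap2 (0.97) and Chrm1, the M1 muscarinic receptor (0.97), at 0.90 to 0.94 without that library. Closest to Mapt were Unc45a, a myosin chaperone (0.92), Zfr2 (0.92), Rnf157 (0.91), Srm, which encodes spermidine synthase (0.90), and Ergic1 (0.90). Closest to Fgf14 were Lcorl (0.89), Zfp108 (0.89), Ogn, which encodes osteoglycin (0.89), Alcam, a cell adhesion molecule (0.89), and Cd47, the ligand of the phagocyte receptor SIRP alpha (0.87). None of these 20 genes was called between all transgenic libraries and littermates by edgeR.

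Related genes were read from lists, between all transgenic libraries and littermates, where edgeR called 0.0481% of all genes and 8% had an unadjusted p under 0.05. Of the relatives and partners of the prion protein, 0 of 11 tested genes were called by edgeR, DESeq2 or limma-voom, 3 had an unadjusted p under 0.05, and 9 were positive with a median log2 fold change of 0.03, against 48.6% positive and a median of -0.01 over all genes. The 3 with the smallest p were Lrp1, an endocytic receptor (0.18 ± 0.06 SE), Stip1, a co-chaperone that binds the prion protein (0.30 ± 0.11), and Adam10, the protease that sheds it (0.15 ± 0.07). Sprn, which encodes the prion-like protein Shadoo, stood at 196.5 CPM in transgenic libraries and 207.5 CPM in littermates (-0.08 ± 0.16).

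Of the other subunits, inhibitors and partners of CaMKII, 0 of 15 were called by edgeR, DESeq2 or limma-voom, 1 had an unadjusted p under 0.05 and 4 were positive, with a median of -0.01. Camk2d, the delta subunit, stood at 110.4 ± 41.1 CPM in transgenic libraries (SD, n = 8) and 73.9 ± 10.5 CPM in littermates (n = 4; log2 fold change 0.57 ± 0.25). Camk2n1, an inhibitor of the kinase, stood at 745 ± 534 and 1210 ± 805 CPM (-0.75 ± 0.40), and Camk2b, the beta subunit, at 1327 ± 194 and 1566 ± 254 CPM (-0.24 ± 0.13).

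Of the microtubule-associated proteins other than tau, listed together with the tubulins Tubb3 and Tuba1a, 0 of 17 genes were called by edgeR, DESeq2 or limma-voom, 3 had an unadjusted p under 0.05 and 11 were positive, with a median of 0.02. These 3 were Map7, which recruits kinesin to microtubules (-0.29 ± 0.08), Stmn2, a stathmin of growing axons (0.22 ± 0.07), and Map7d2 (0.20 ± 0.09). Map2, the dendritic relative of tau, stood at 942.1 CPM in transgenic libraries and 932.1 CPM in littermates (0.02 ± 0.07). Map2, like Sprn, was named after its values were seen.

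Of the FGF homologous factors and sodium channels other than Fgf14, 0 of 11 were called by edgeR, DESeq2 or limma-voom, 1 had an unadjusted p under 0.05 and 8 were positive, with a median of 0.12. Of the other FGF homologous factors, Fgf13 stood at 174.6 CPM in transgenic libraries and 201.6 CPM in littermates (-0.21 ± 0.13), and Fgf12 at 125.9 and 108.4 CPM (0.21 ± 0.18). Fgf11, given to complete the family and not by the rule for named genes, stood at 44.5 and 40.7 CPM (0.12 ± 0.21). Scn2b, a sodium channel beta subunit, stood at 334 ± 10.8 CPM (SD, n = 8) and 303 ± 22.0 CPM (n = 4), a log2 fold change of 0.14 ± 0.06. Its groups did not overlap, as for 1.31% of all genes tested, and neither did those of Lrp1 in the prion protein list.

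The site of the activator transgene on chromosome 12 holds 5 further host genes. Between all transgenic libraries and littermates 4 of these fell: Esyt2 (-0.98 ± 0.10 SE), Wdr60 (-0.89 ± 0.09), Ptprn2 (-0.63 ± 0.07) and Ncapg2 (-1.42 ± 0.22), with adjusted p from 0.00062 to 0.037 (edgeR). Vipr2 stood at 4.57 ± 1.40 and 1.37 ± 0.56 CPM and did not pass in edgeR (1.73 ± 0.31, adjusted p = 0.108), while DESeq2 called it (adjusted p = 4.36e-05) and with it all 5 genes, and limma-voom called 4. All 5 had an unadjusted p under 0.05, beside 3 of the 4 genes described here and 8% of all genes tested. These 5 genes were named in earlier results of these libraries, so that their directions are not independent evidence.

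**Figure D5:**
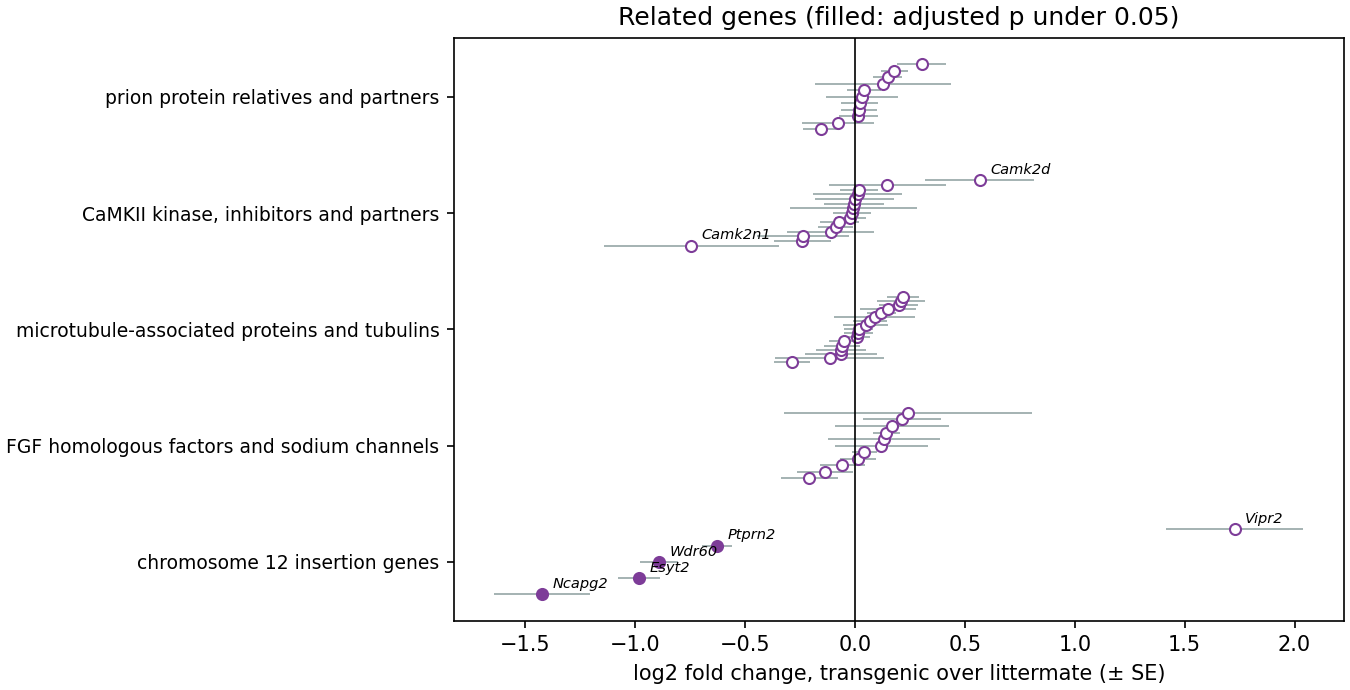
Log2 fold change with its SE (horizontal axis), all transgenic libraries over littermates, of the tested genes of 5 lists. Filled points passed the threshold and genes beyond 0.5 either way are named. The 4 filled points are genes of the chromosome 12 site, from -1.42 to -0.63, and the other lists hold open points, of which Camk2n1 (-0.75) and Camk2d (0.57) lie farthest from 0.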

How the data were processed

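Per the labels' protocols, hippocampal RNA came from Trizol and spin columns, and an Illumina TruSeq kit gave polyA libraries. The authors deposited raw read counts per gene symbol for 12 libraries. STAR, DESeq2 and mm10 are named, with no versions or roles, per the submitters' processing notes. The sources used here do not give annotation, strand setting or filters, and overlapping genes may share or lose reads. Of 24411 entries, 27 that carry dates in place of symbols were left out (0.285% to 0.363% of counts). Positions came from GENCODE M21.

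Counts of genes kept by filterByExpr by group (minimum count 10, minimum total 15; 16618 genes) were scaled by TMM and fitted over all 12 libraries with group as the term in edgeR 4.0.16 (R 4.3.3). The common dispersion was 0.0817. Sex was tested in the 8 transgenic libraries alone, with group as a term. Permutation tests used log2 CPM (prior count 2). The rule for named genes took the 4 genes, the nearest 5 tested genes on each side of each (of which some are given as ranges), the 5 most alike with at least 1 CPM, the 3 of each related list with the smallest p, and the chromosome 12 genes. The members, lists and several alternatives were chosen with earlier results of these data known. In simulated counts of 16618 genes with 200 changed between transgenic libraries and littermates, the test recovered 82% of the genes given a log2 change of 1 and 97% of those given 2, with 5 false calls. The changed genes were drawn from those with a mean of at least 1 CPM. Counts were drawn for each gene alone, so differences in tissue make-up shared by many genes were not simulated. Replicates differed beyond sampling noise (chi-square per gene 15.3 or more). Alternatives included DESeq2 1.42.0 and limma-voom (limma 3.58.1).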

Additional observations from a re-analysis of the deposited data

Results flagged for a closer look

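In a group of 4 libraries, a value was marked where its gap to the nearest other, as a share of the group's range, exceeded Dixon's 95% critical value. Of 12 groups checked, 1 was marked, and chance marks about 1 in 20. This was Camk2a in rTg4510+3TC F2, at 2457 CPM against 4974 to 5329 CPM in the other 3 treated libraries, with a gap of 0.876 of the range. In the same library Slc17a7 and the other forebrain excitatory markers summed to 1782 CPM and thalamic markers to 803.1 CPM. Their part in the Camk2a value was not tested.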

How the results depend on the processing

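Over all genes, the DESeq2 Wald test called 22 between rTg4510 and littermates, 100 between rTg4510+3TC and littermates, 89 for all transgenic libraries, 1 for 3TC and 15 for sex. Leaving out each library in turn gave 4 to 9, 6 to 16 and 5 to 18 calls against littermates; counts moved by over 1.5 times without rTg4510 F3 (9, 14 and 15), without rTg4510+3TC F2 (8, 16 and 18) and, for all transgenic libraries, without littermate F1 or F3 (5 each). Without the libraries high in thalamic, striatal or oligodendrocyte markers the 3 counts were 36, 71 and 108, and without those high in Ttr 0, 0 and 0, where Prnp stayed at 1.70, 1.71 and 1.71 but did not pass (adjusted p = 0.716, 0.342 and 0.246, edgeR). Fewer libraries entered those fits. Replicate codes did not pair libraries (correlation of deviations -0.246 to 0.05 between like codes). With the code as a replicate block, 0 genes were called in each of the 3 littermate comparisons and 2 for sex, and the log2 fold change of Prnp was 1.84, 1.75 and 1.80 (adjusted p = 0.901, 0.348 and 0.258, edgeR). Leaving out single libraries, Prnp kept its call against littermates. Uncalled values near 0 changed sign, and the cause was not tested. With the block these were Camk2a in rTg4510 against littermates (0.157), Fgf14 with 3TC (0.0351) and Fgf14 by sex (0.0169). Without the libraries high in those markers they were, with 3TC, Prnp (0.124) and Fgf14 (0.129) and, by sex, Prnp (0.0632) and Camk2a (0.148). Without the Ttr libraries it was Prnp with 3TC (0.00938). Leaving out single libraries, the change with 3TC ran from -0.135 to 0.158 for Prnp and -0.163 to 0.118 for Fgf14, and the difference by sex from -0.292 to 0.0121 for Prnp, -0.291 to 0.13 for Camk2a and -0.274 to 0.065 for Fgf14. The correlation of Prnp and Camk2a was -0.111 without rTg4510+3TC F2.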
